A study of Mus musculus with 12 samples.

Results

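The common gamma chain cytokine axis was followed in immune cells of mouse tumors through 8 genes, chosen by name from the 31053 genes of the count table. They are the shared receptor chain Il2rg, the chains Il2ra, Il2rb, Il7r, Il15ra, Il4ra and Il21r that join it, and the ligand Il15. The libraries hold CD45+ (leukocyte) cells that were pulled with CD45 TIL microbeads from subcutaneous MC38 tumors (a mouse colon adenocarcinoma line) of C57BL/6 mice on day 17. Of the 12 mice, 3 received vehicle for 7 days, 3 the EZH2 inhibitor PF-06821497 (EZH2i) at 100 mg/kg for 7 days, 3 vehicle for 16 days and 3 EZH2i at that dose for 16 days, all by daily subcutaneous injection. All mice bore the tumor. No source used here gives their age.

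Libraries are numbered 1 to 12 by a suffix of the barcode, and no label or file names the mouse or the treatment behind a number. No library was therefore assigned to a group, and vehicle and EZH2i were not compared. Levels are given across cell classes and within libraries, with no test. A count such as "higher in 12 of 12 libraries" says how often a difference held. With the first such count for a pair of classes stands the percentage of all genes that were higher, or lower, in every library of that comparison, except where the gene was too low to be among those genes. Levels are in CPM (UMIs of the gene scaled to a common total of the class), and that percentage is over genes with a mean of at least 20 CPM in both classes together. A gene can reach that mean through its higher class alone. That was so for Il15 in neutrophils over macrophages and monocytes and in mature dendritic cells over monocytes, for Il15ra in mature dendritic cells over CD8 T cells and neutrophils, for Il2rb in NK cells over mature dendritic cells, and for Il15, Il15ra, Il2ra, Il7r and Il21r in mature dendritic cells over type 1 conventional dendritic cells. All were under 20 CPM in the median library of the lower class. The percentage is printed with these counts, and nothing is read from the counts against it.

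Cytokines of this family bind receptors that share the gamma chain, which signals through JAK1 and JAK3 to STAT proteins. IL-2 and IL-15 also share the beta chain encoded by Il2rb, and their private alpha chains, encoded by Il2ra and Il15ra, set the affinity. IL-15 is commonly shown to lymphocytes by the IL-15 receptor alpha chain of another cell, IL-7 keeps resting T cells alive, and IL-4 and IL-21 act through Il4ra and Il21r on T cells, B cells and myeloid cells.

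After cells were kept by the limits that the study states, 128912 of 140639 barcodes remained, and 69112 of them met a gate on lineage transcripts that used none of the 8 genes. The gates gave 58223 macrophages, 2233 Ly6c2-high monocytes, 165 patrolling monocytes, 1219 neutrophils and 48 basophils and mast cells. They also gave 919 mature dendritic cells (Ccr7 and Fscn1), 880 type 1 conventional dendritic cells (cDC1), 191 Cd209a-positive dendritic cells and 224 plasmacytoid dendritic cells (pDC). The lymphocytes were 3411 CD8 T cells, 698 conventional CD4 T cells, 35 Foxp3-positive T cells, 103 Trdc-positive T cells, 404 natural killer (NK) cells and 349 B cells. For each class 5 further marker genes were looked up. In 14 of the 16 classes at least 4 of them were highest or second highest in that class. In CD8 T cells 2 of 5 were, while Ccl5, Trac and Lck were in the third place. A class of 10 Gata3-positive cells had 0 of 5 and is not described further, and no cell met a gate for keratin-positive tumor cells.

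The median cell had between 2291 and 15081 unique molecular identifiers (UMIs, counted transcripts) per library. Transcripts of the Y chromosome were found in libraries 1 to 6 and not in libraries 7 to 12, so the main comparisons were also made in each set. The study's methods describe female mice, and the Y transcripts of libraries 1 to 6 go against that. Xist, the RNA that silences an X chromosome in female cells, stood at 0.059 CPM or less in those libraries and at 658 CPM or more in libraries 7 to 12. Library 4 stood apart, with 9 CD8 T cells and 388 neutrophils. Of the barcode sequences kept, 1.48% occurred in more than 1 library. The gate for neutrophils took 20 or 21 cells in libraries 5 and 6. In library 6 these cells had the lowest sum of 5 neutrophil genes (4550 CPM, against a median of 48539) and the highest sum of 5 macrophage genes (12428 CPM, against a median of 2191), and their values are named below where they stand out. The macrophage sum was also highest in library 6 in B cells, NK cells, conventional CD4 and CD8 T cells and every dendritic class. It was 3804 CPM there in CD8 T cells (median 501), 4131 CPM in NK cells (median 761) and 7283 CPM in mature dendritic cells (median 687). In monocytes it was highest in library 2.

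The promoters of Il15ra, Il2ra and Il21r are shown first, because these receptor genes were all low in cDC1 and high in mature dendritic cells. Il7r shared that pattern, but its window lies within the annotated gene and is not shown, and it holds no match to the loose form described next. Each is the 250 bases before the RefSeq transcript start on build GRCm38.p6, plus strand, at chr2:11705043-11705292 for Il15ra (the upstream of its 2 annotated starts), chr2:11642542-11642791 for Il2ra and chr7:125603179-125603428 for Il21r. Capitals mark matches to a loose NF-kB form (GGG and CC with any 5 bases between them) on either strand, and in Il2ra a pair of matches overlap. The window of the other Il15ra start, also not shown, holds 1 match.
Il15ra: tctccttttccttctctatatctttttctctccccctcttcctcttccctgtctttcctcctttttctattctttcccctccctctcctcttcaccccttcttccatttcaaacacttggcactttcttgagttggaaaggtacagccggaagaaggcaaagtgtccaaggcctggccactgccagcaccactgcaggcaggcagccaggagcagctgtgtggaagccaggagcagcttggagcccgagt
Il2ra: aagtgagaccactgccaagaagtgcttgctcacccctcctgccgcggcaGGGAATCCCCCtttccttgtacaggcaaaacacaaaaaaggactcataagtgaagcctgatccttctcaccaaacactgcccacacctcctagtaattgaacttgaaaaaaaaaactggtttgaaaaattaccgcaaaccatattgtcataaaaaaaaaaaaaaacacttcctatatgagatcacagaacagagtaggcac
Il21r: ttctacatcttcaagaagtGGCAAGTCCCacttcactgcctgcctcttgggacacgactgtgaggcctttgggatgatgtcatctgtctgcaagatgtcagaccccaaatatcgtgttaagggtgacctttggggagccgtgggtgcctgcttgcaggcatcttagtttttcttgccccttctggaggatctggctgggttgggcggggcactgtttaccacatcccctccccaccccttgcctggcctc
The loose form occurs in 45.8% of 32851 promoter windows of this length, so a match is common. The strict NF-kB form (0.356% of windows), the STAT form TTCNNNGAA (7.02%) and the interferon response core (TTTC again after any 2 bases, 2.98%) have no match in these windows. Among the members with a promoter in the table, 6 of 8, the STAT form matched once, in the window of Il7r.

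Il15, the ligand of the axis (chr8, 82331632 to 82403222, minus strand), was highest in neutrophils, followed by mature dendritic cells. In neutrophils its level was 22.6 CPM at the lowest (library 6), 110 CPM at the median and 233 CPM at the highest (library 3) over 12 libraries. In mature dendritic cells it ran from 16.0 to 73.0 CPM with a median of 51.8 CPM, and the lowest value (library 10) rests on 2 UMIs. Macrophages held 8.46 to 16.7 CPM, which lay wholly under the neutrophil range. In libraries 6 and 5, however, they held 12.4 and 15.9 CPM, within the neutrophil intervals of those libraries. Monocytes reached 9.44 to 36.4 CPM, cDC1 0 to 20.9 CPM and CD8 T cells 0 to 6.63 CPM. No Il15 UMI was found in B cells of any of the 4 libraries with at least 20 of them.

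Within libraries, Il15 was higher in neutrophils than in macrophages in 12 of 12, with a median log2 ratio of 3.12 (1.46 to 4.60), where 7.83% of 4958 genes were higher in every library. The lowest of these ratios was that of library 6, where neutrophils had 1 Il15 UMI. Against monocytes the median log2 ratio of neutrophils was 2.42 and the count again 12 of 12, with 4.95% of genes in the background, and at 1000 UMIs per cell the ratio was 1.67. Against mature dendritic cells it was 0.91 and held in 11 of 12 libraries, library 6 being the exception, where 11.5% of genes were higher in all 12. Without library 4, which held the most neutrophils, the ratio to macrophages was 3.13. The neutrophil over macrophage ratio was 2.79 in libraries 1 to 6 and 3.12 in libraries 7 to 12.

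Neutrophils were shallow, with a median of 1767 UMIs against 6393 in macrophages, so shares of cells were also compared at 1000 UMIs per cell. At that depth 10.6% of 853 neutrophils had an Il15 UMI (exact 95% interval 8.57 to 12.8%), against 5.53% of 886 mature dendritic cells, 1.23% of 58180 macrophages and 0 of 268 B cells. Before thinning the shares were 20.02% in neutrophils, 19.5% in mature dendritic cells, 7.84% in macrophages and 0.287% in B cells. Neutrophils with Retnlg and without Ccl3 transcripts held 36.1 CPM in library 4, 186 CPM in library 2, 154 CPM in library 8 and 100.2 CPM in library 12. Neutrophils with Ccl3 and without Retnlg transcripts held 54.7, 178 and 97.2 CPM in libraries 4, 8 and 12. The Retnlg-positive value of library 4 rests on 1 UMI (exact 95% interval 0.91 to 201 CPM) and those of libraries 2 and 12 on 6 UMIs each. An order of these subsets can therefore not be read from the values. Both subsets had their lowest value in library 4, for the Retnlg-positive cells on that 1 UMI.

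Among the other sources, mature dendritic cells exceeded cDC1 in Il15 in 12 of 12 libraries by a median log2 ratio of 2.41 (1.11 to 4.27), and 15.5% of 5117 genes did so in every library. They exceeded monocytes by 1.22, also in 12 of 12, where 15.6% of genes did. In library 10 the values of mature dendritic cells (16.0 CPM) and monocytes (11.1 CPM) rest on 2 UMIs each. Macrophages were above monocytes in 2 of 12 libraries, with a median log2 ratio of -0.70, and Il15 was too low in both for a percentage. Macrophages that carried Cxcl9 and no Arg1, and those that carried Arg1 and no Cxcl9, did not separate in Il15. The median log2 ratio was -0.050 (-0.47 to 0.42), and Cxcl9-high macrophages were higher in 3 of 12 libraries, again at levels too low for a percentage.

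**Figure D1:**
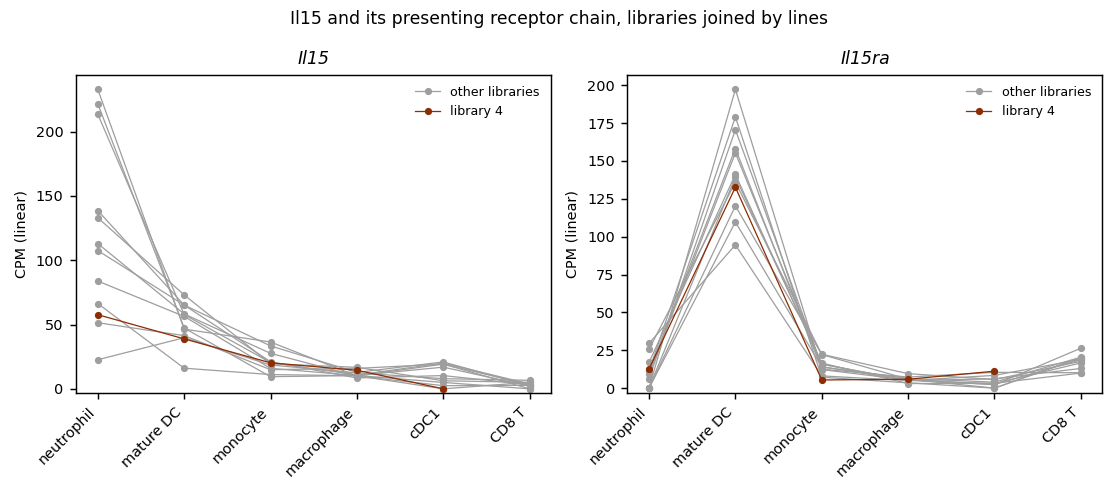
Level of Il15 (left) and Il15ra (right) in CPM on linear axes, by cell class, with a line for each library and library 4 in brown. Il15 in neutrophils lies between 22.6 and 233 CPM and above mature dendritic cells in 11 of 12 libraries. Library 6 is the exception, and its neutrophil value rests on 1 UMI. Il15ra lies highest in mature dendritic cells, between 94.5 and 197 CPM.

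Il15ra, the chain that holds and presents IL-15 (chr2, 11705290 to 11734317, plus strand), had its highest level in mature dendritic cells. Its values there ran from 94.5 to 197 CPM with a median of 140 CPM, and no library of any other class with at least 20 cells came above 50.8 CPM. That value was of conventional CD4 T cells in library 7. CD8 T cells held 9.94 to 26.3 CPM, neutrophils 0 to 29.5 CPM, macrophages 3.04 to 9.56 CPM and cDC1 0 to 11.2 CPM. The median log2 ratio of mature dendritic cells over cDC1 was 4.78 (3.25 to 7.13), over CD8 T cells 3.05 (11 of 11 libraries, with 17.6% of 5372 genes higher in all) and over neutrophils 3.43 (12 of 12, with 16% of genes; 2.83 at 1000 UMIs per cell and 4.19 in libraries 7 to 12). The cDC1 of 2 libraries had no Il15ra UMI, and their ratios rest on the 0.5 UMI added to every sum. With each cell thinned to 1000 UMIs the ratio over cDC1 was 2.95.

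The classes that led in ligand and in presenting chain thus differed, and transcripts of both were seldom found in 1 neutrophil. Il15 and Il15ra were detected together in 108 of 919 mature dendritic cells (11.8%, exact 95% interval 9.74 to 14.0%) and in 8 of 1219 neutrophils (0.656%, 0.284 to 1.29%). The products of the separate shares were 7.29% and 0.460%, and the latter lies within the neutrophil interval. Neutrophils were also shallower, with a median of 1767 UMIs against 3797, and the part of this in the shares was not tested. Of the mature dendritic cells with an Il15 UMI, 60.3% also had one of Il15ra, against 31.9% of the rest. The former were deeper, with a median of 5803 against 3510 UMIs, and the part of depth in this difference was not tested.

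Macrophages were low in Il15ra, yet their subsets differed. Cxcl9-high macrophages held 4.19 to 11.04 CPM and Arg1-high macrophages 2.85 to 7.63 CPM. The former were higher in 11 of 12 libraries, with library 4 the exception, and the median log2 ratio was 0.69. It was 0.56 in libraries 1 to 6 and 1.09 in libraries 7 to 12. Both levels lay under the 20 CPM asked of genes in the background, so no percentage is set beside this count. Monocytes were above macrophages in 11 of 12 libraries, with a median macrophage over monocyte log2 ratio of -1.34, and these levels too were under that minimum.

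Il2rg, the shared gamma chain (chrX, 101264378 to 101268255, minus strand), was found in every class with at least 20 cells. Conventional CD4 T cells had a median of 210 CPM (166 to 399), NK cells 205 CPM (127 to 258) and CD8 T cells 177 CPM (150.3 to 242), and these ranges overlapped. Macrophages held 49.9 to 99.8 CPM and did not overlap with CD8 T cells. The CD8 over macrophage log2 ratio was 1.48 at the median in 11 of 11 libraries, against a background of 25.2% of 5634 genes. It was 1.02 in libraries 1 to 6 and 1.54 in libraries 7 to 12. NK cells exceeded neutrophils in 5 of 6 libraries by a median log2 ratio of 2.34 (18.7% of genes did so in all 6). The ratio was 4.07 over 3 libraries without the 10% of cells with the most UMIs and 3.48 as a mean over cells. By contrast, in library 6 the neutrophil gate held 204 CPM against 127 CPM in NK cells. In that library the macrophage genes were high in the neutrophil gate and also in NK cells (4131 CPM, against a median of 761). The part of macrophage RNA in either value was not tested.

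The lowest level of Il2rg among the dendritic cells was that of cDC1, with 5.98 to 40.3 CPM. Mature dendritic cells held 40.1 to 116 CPM and exceeded cDC1 in 12 of 12 libraries (median log2 ratio 1.67). Cxcl9-high macrophages had 65.8 to 132 CPM and Arg1-high macrophages 38.5 to 78.0 CPM. The former were higher in 12 of 12 libraries with a median log2 ratio of 0.96, and 9.21% of 5352 genes behaved so.

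Il2rb, the beta chain of the IL-2 and IL-15 receptors (chr15, 78479256 to 78495271, minus strand), was found mostly in T cells and NK cells. NK cells led with 621 to 1126 CPM and a median of 887 CPM over 6 libraries. CD8 T cells held 252 to 925 CPM (median 489) over 11 libraries, and conventional CD4 T cells 274 to 539 CPM (median 333) over 9. Pooled over libraries, Trdc-positive T cells had 628 CPM and Foxp3-positive T cells 424 CPM (exact 95% intervals for counting error 546 to 718 and 341 to 522). In mature dendritic cells the pooled level was 6.35 CPM, in cDC1 5.48 CPM and in macrophages 1.97 CPM. The macrophages of libraries 5 and 6 held 5.93 and 8.47 CPM and those of the other 10 libraries 0.11 to 1.23 CPM, and without library 6 the pooled level was 1.25 CPM. Monocytes of library 6 held 88.1 CPM (19 UMIs), and the pooled level of monocytes was 3.11 CPM with that library and 1.58 CPM without it. The neutrophil gate held 103 CPM in library 5 and 67.9 CPM in library 6, from 4 and 3 UMIs. Summed levels of Trac, Trbc2, Cd2 and Lck, T cell genes used in no gate, were highest in the same libraries, at 77.1 CPM in neutrophils of library 5, 78.9 CPM in monocytes of library 6 and 18.8 CPM in macrophages of library 6. The part of T cell RNA in these values was not tested.

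In libraries with both classes, NK cells exceeded CD8 T cells in Il2rb in 6 of 6, by a median log2 ratio of 0.63 (0.28 to 0.77), where 4.91% of 5433 genes were higher in all. With gates that asked for 1 UMI more the ratio was 0.30 over 4 libraries. CD8 T cells were above conventional CD4 T cells in 7 of 9 libraries at a median of 0.54, where 4.03% of genes were higher in all 9. Libraries 8 and 9 went the other way, and at 1000 UMIs per cell the median was -0.091. The order of these T cell classes in Il2rb was therefore not settled. NK cells exceeded mature dendritic cells by a median log2 ratio of 6.84 in 6 of 6 libraries, with 18.8% of 5347 genes higher in all. Under the alternatives this ratio ran from 6.03 at 1000 UMIs per cell to 8.02 with at most 5% mitochondrial UMIs.

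Il2rb and Il2rg were both found in 42.6% of NK cells, 39.5% of conventional CD4 T cells and 35.2% of CD8 T cells. The products of the separate shares were close to these values, at 40.5, 36.1 and 31.4%. Cells with Il2rb were also deeper, with a median of 2838 against 1487 UMIs in NK cells, and the part of depth was not tested. These are shares of cells with a UMI of each, and a cell without a UMI may still hold the transcript.

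**Figure D2:**
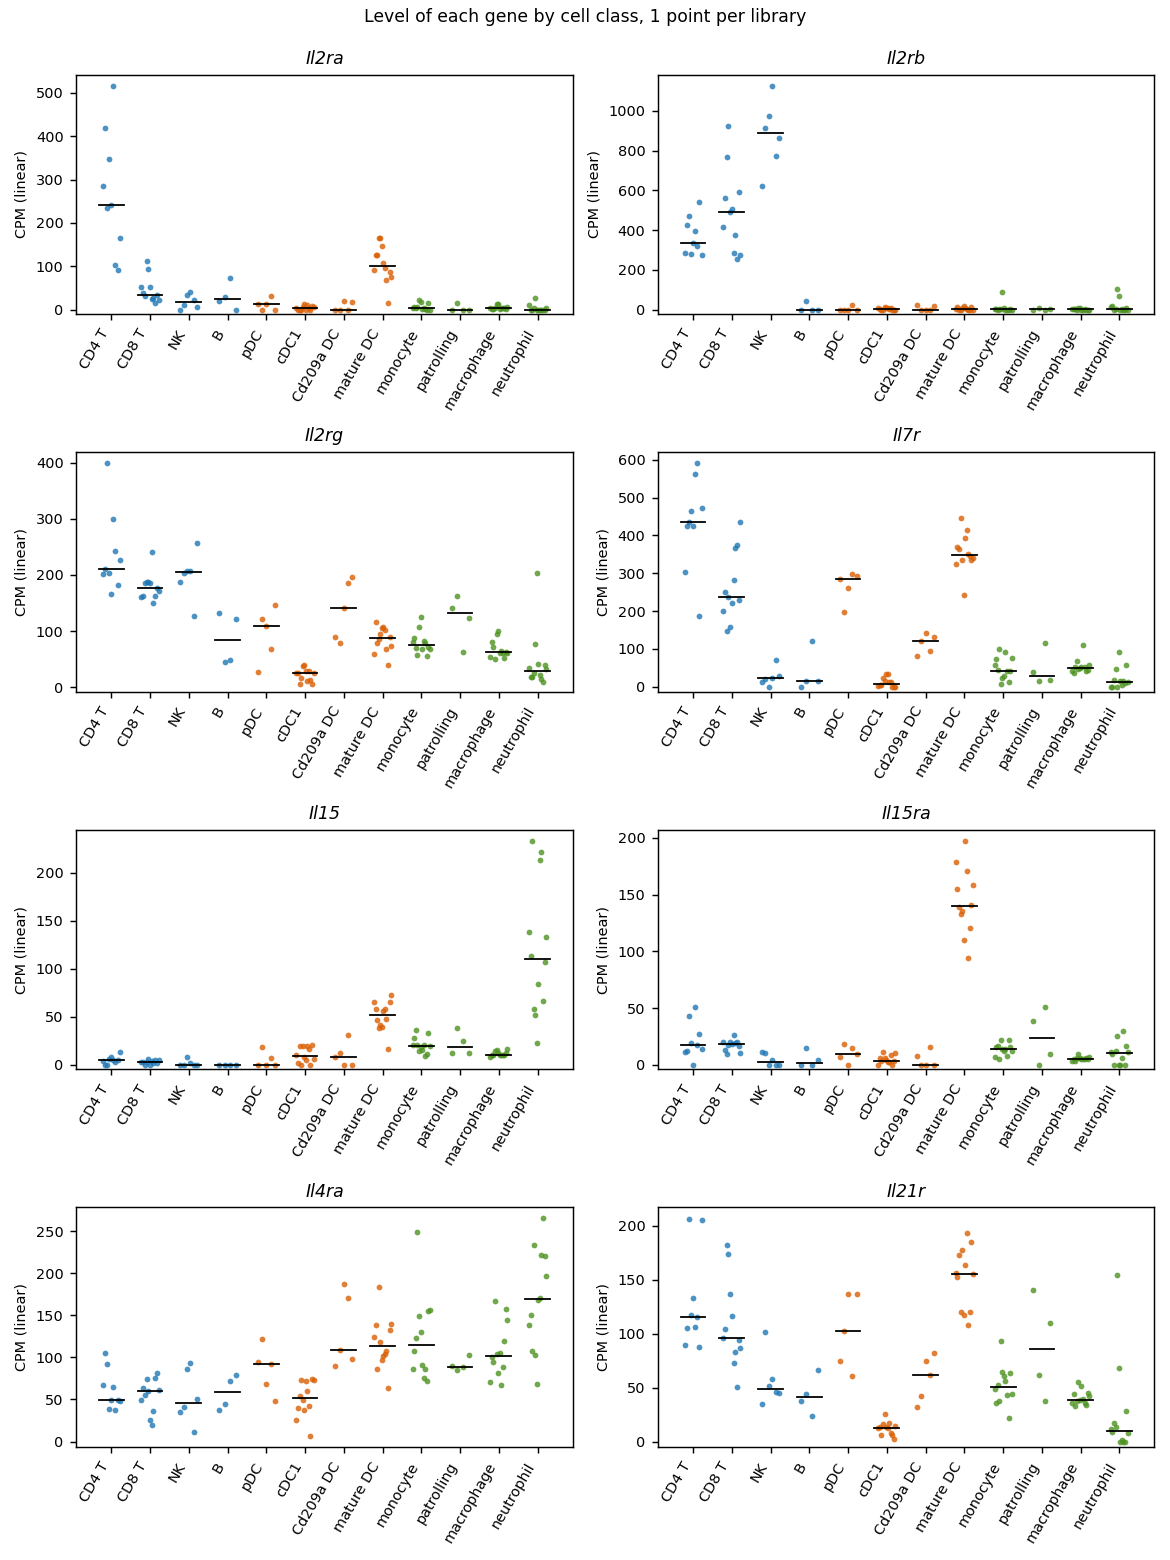
Level of each of the 8 genes in CPM on linear axes, by cell class, with a point for each library that held at least 20 cells of the class and a black line at the median. Lymphocytes are blue, dendritic cells orange and myeloid cells green. Il2rb stands in T and NK cells, with a median of 887 CPM in NK cells, whereas Il15ra is at 94.5 CPM or more in mature dendritic cells and at 50.8 CPM or less elsewhere.

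Il2ra, the alpha chain of the high-affinity IL-2 receptor (chr2, 11642807 to 11693193, plus strand), was highest in the few Foxp3-positive T cells. Their pooled level was 696 CPM (exact 95% interval 588 to 818) and 80.0% of the 35 cells had a UMI. They reached 20 cells in no library, so no ratio was formed by the rule. In the libraries with at least 5 of them they held 385 CPM against 285 CPM in conventional CD4 T cells (library 1, 6 cells) and 950.1 CPM against 103 CPM (library 8, 13 cells). Conventional CD4 T cells ran from 92.4 to 517 CPM (median 241) and CD8 T cells from 15.1 to 112 CPM (median 33.3). The gate for conventional CD4 T cells asked for no Foxp3 UMI, at a median of 3535 UMIs per cell. A T cell that expressed Foxp3 without a counted UMI would fall into it. The part of such cells in these Il2ra values was not tested. The CD4 over CD8 log2 ratio was 2.31 at the median (1.37 to 3.47) in 9 of 9 libraries, while 6.51% of 5512 genes were higher in all 9.

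Il2ra was also found in mature dendritic cells, where it ran from 16.0 CPM in library 10 to 166 CPM in library 4 with a median of 101 CPM. cDC1 held 0 to 11.9 CPM and were at 0 in 5 of 12 libraries. The median log2 ratio was 4.29 in 12 of 12 libraries, 5.24 in libraries 1 to 6 and 3.24 in libraries 7 to 12. Under the other alternatives it ran from 2.76 at 1000 UMIs per cell to 5.79 with gates raised by 1 UMI. Il2rb stood at 6.35 CPM in these mature dendritic cells, and Il2ra and Il2rb were detected together in 0.979% of them, against 22.6% of conventional CD4 T cells. Neutrophils had no Il2ra UMI in 8 of 12 libraries. In Cxcl9-high macrophages the level was 3.25 to 19.2 CPM and in Arg1-high ones 0.84 to 8.71 CPM, with the former higher in 12 of 12 libraries. Both levels were too low for the background genes, so no percentage is set beside this count. The median log2 ratio was 0.92 in libraries 1 to 6 and 2.45 in libraries 7 to 12.

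Il7r, the alpha chain of the IL-7 receptor, which keeps naive and memory T cells alive (chr15, 9505788 to 9530176, minus strand), varied widely between classes. Highest at the median were conventional CD4 T cells (187 to 591 CPM, median 434), mature dendritic cells (243 to 446 CPM, median 348), pDC (197 to 298 CPM, median 285) and CD8 T cells (148 to 435 CPM, median 237). Cd209a-positive dendritic cells followed with 81.8 to 141 CPM. Macrophages had 35.4 to 110 CPM, NK cells 0 to 69.0 CPM, neutrophils 0 to 90.6 CPM and cDC1 0 to 32.4 CPM. The highest neutrophil value was that of library 6, from 4 UMIs, and the next was 56.6 CPM in library 11. The ranges of conventional CD4 T cells, mature dendritic cells, pDC and CD8 T cells overlapped with each other. Every CD8 T cell value lay above that of NK cells in its library.

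Conventional CD4 T cells exceeded CD8 T cells in Il7r in 8 of 9 libraries with a median log2 ratio of 1.05, and in library 9 the CD4 T cells held 187 CPM against 366 CPM. NK cells were below CD8 T cells in 6 of 6 libraries (median log2 ratio -3.29, and -2.62 with at most 5% mitochondrial UMIs), where 9.96% of genes were lower in all. Mature dendritic cells were above CD8 T cells in 8 of 11 libraries with a median of 0.55 (17.6% of genes were higher in all 11). They were higher in 5 of 5 among libraries 1 to 6 and in 3 of 6 among libraries 7 to 12. This pair thus did not separate over all libraries. Against cDC1 the median log2 ratio of mature dendritic cells was 5.55 (2.90 to 8.36) in 12 of 12 libraries. It was 3.90 at 1000 UMIs per cell and 6.26 without library 4. In 3 of these libraries the cDC1 had no Il7r UMI. Pooled over libraries the levels were 360.1 and 14.5 CPM.

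T cell transcripts were scarce in the mature dendritic cells. The 4 genes Trac, Trbc2, Cd2 and Lck summed to 14.0 CPM there (0 to 55.7 CPM over libraries, with none of the 4 at 0 overall) and to 2092 CPM in CD8 T cells. The pooled levels in mature dendritic cells were 360.1 CPM of Il7r, 118 CPM of Il2ra and 6.35 CPM of Il2rb, and the part of T cell RNA in them was not tested. Il7r and Il2ra were detected together in 23.8% of mature dendritic cells, where the product of the separate shares was 19.4%. The cells with Il2ra were deeper, with a median of 4460 against 3501.5 UMIs, and the part of depth was not tested.

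**Figure D3:**
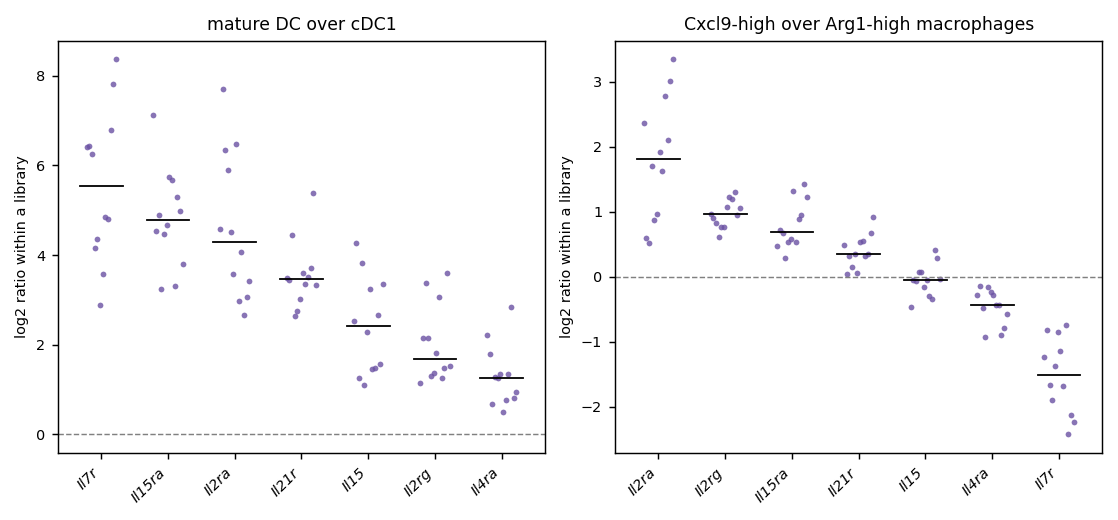
Log2 ratio of levels within a library for mature dendritic cells over cDC1 (left) and Cxcl9-high over Arg1-high macrophages (right), with a point for each of 12 libraries, a black line at the median and a dashed line at equal levels. The genes on the left, 4 of them (Il2ra, Il2rg, Il7r and Il21r) added after values had been seen, lie above 0 in every library, with medians from 1.27 to 5.55, while on the right Il7r lies below 0 and Il2rg above it in every library. Il2rb was not compared in these pairs and is not drawn. Its level in mature dendritic cells against cDC1 was 3.25 against 10.3 CPM in library 1 and 14.6 against 1.23 CPM in library 2.

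CD8 T cells with Tcf7 transcripts and without Havcr2, a state with memory traits, differed in Il7r from those with Havcr2 and without Tcf7, which carry an exhaustion marker. In the 4 libraries that held 20 or more of each, the Tcf7-positive cells held 432 to 681 CPM and the Havcr2-positive cells 76.4 to 194 CPM, with no overlap. The median log2 ratio was 1.77 (1.38 to 2.94) in 4 of 4 libraries, where 11.6% of 5427 genes were higher in all. Il2rb went the other way, lower in Tcf7-positive cells in 4 of 4 libraries (median log2 ratio -0.58), with 11.1% of genes lower in all. Il21r was higher in Havcr2-positive cells in 3 of 4 libraries at a median of 0.071, which is no separation.

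Cycling CD8 T cells (with Mki67 or Top2a and without Tcf7) were set beside Havcr2-positive cells in 8 libraries. The gate for Havcr2-positive cells excluded Mki67 and Top2a, while that for Tcf7-positive cells did not. Il2rb was higher in cycling cells in 4 of 8 with a median log2 ratio of 0.026, where 9.09% of 5509 genes were higher in all 8. Il2ra was higher in 2 of 8 at a median of -0.78 (2.83% of genes were lower in all 8), but at 1000 UMIs per cell the median was 0.16 and in libraries 7 to 12 it was -0.031. Neither gene thus separated these subsets. Il7r in cycling cells ran from 91.4 to 275 CPM.

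**Figure D4:**
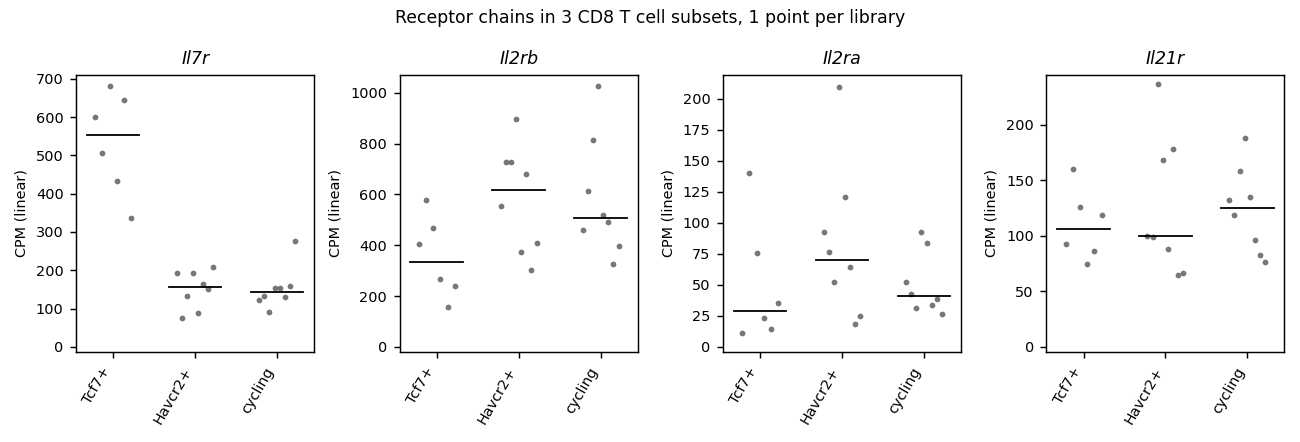
Level of Il7r, Il2rb, Il2ra and Il21r in CPM on linear axes in Tcf7-positive, Havcr2-positive and cycling CD8 T cells, with a point for each library that held at least 20 cells of the subset and a black line at the median. Il7r in Tcf7-positive cells lies between 336 and 681 CPM, above all values of the other subsets, which were gated to lack Tcf7.

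Among macrophages, Il7r and Il4ra were higher in the Arg1-high subset, whereas Il2rg, Il2ra and Il21r were higher in the Cxcl9-high subset. The Arg1-high cells were deeper, with a median of 8273 against 5746 UMIs. For Il7r, Arg1-high macrophages held 46.6 to 152 CPM and Cxcl9-high ones 15.0 to 47.0 CPM. The Cxcl9-high cells were lower in Il7r in 12 of 12 libraries, with a median log2 ratio of -1.51 (-1.55 at 1000 UMIs per cell), and 12.2% of genes were lower in all 12. The ratio was -1.30 in libraries 1 to 6 and -1.91 in libraries 7 to 12. Sums of the 4 T cell genes were at most 20.5 CPM in Cxcl9-high and 17.2 CPM in Arg1-high macrophages.

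Il4ra, the chain that binds IL-4 (chr7, 125552120 to 125579474, plus strand), was detected in every class described here. Neutrophils led with 67.9 to 265 CPM (median 169), ahead of monocytes (72.1 to 249, median 115), mature dendritic cells (64.2 to 183, median 113) and macrophages (66.9 to 167, median 102), and all these ranges overlapped. The lowest neutrophil value was that of library 6. CD8 T cells held 19.5 to 81.9 CPM and cDC1 6.36 to 74.7 CPM. Neutrophils were above macrophages in 10 of 12 libraries (median log2 ratio 0.57, against 7.83% of genes higher in all 12), and above monocytes in 8 of 12 (0.53), with a median of -0.094 in libraries 1 to 6. Macrophages exceeded CD8 T cells in 11 of 11 libraries by a median of 0.76, where 26.9% of genes did. Arg1-high macrophages exceeded Cxcl9-high ones in 12 of 12 by 0.44 (12.2% of genes), and mature dendritic cells exceeded cDC1 in 12 of 12 by 1.27 (15.5% of genes). Conventional CD4 and CD8 T cells did not separate, with CD4 higher in 6 of 9 libraries.

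Il21r, the receptor of the T helper cytokine IL-21 (chr7, 125603429 to 125633570, plus strand), was highest in mature dendritic cells, with 108 to 193 CPM and a median of 156 CPM. Conventional CD4 T cells followed with 87.4 to 207 CPM (median 116), pDC with 61.1 to 137 CPM (median 103) and CD8 T cells with 50.5 to 183 CPM (median 95.9). These ranges overlapped. Macrophages had 33.6 to 55.2 CPM, B cells 24.1 to 66.7 CPM and cDC1 2.99 to 26.1 CPM. The neutrophil gate held 154 CPM in library 5 and 67.9 CPM in library 6, from 6 and 3 UMIs, and 28.3 CPM or less in the other 10. Mature dendritic cells exceeded cDC1 in 12 of 12 libraries by a median log2 ratio of 3.46 (2.63 to 5.37), or 4.14 with gates raised by 1 UMI. CD8 T cells exceeded macrophages in 11 of 11 by 1.20, where 25.2% of genes did. NK cells were below CD8 T cells in 6 of 6 libraries by the counts, with a median log2 ratio of -1.35, where 9.96% of genes were lower in all 6. B cells were below them in 3 of 4, where 16.2% of genes were lower in all 4, and the median log2 ratio was -1.38, or -0.60 as a mean over cells. Those 3 libraries (1, 5 and 6) rest on 2, 3 and 1 UMIs in B cells. In library 10 the B cells held 66.7 CPM from 17 UMIs, against 50.5 CPM from 10 UMIs in CD8 T cells. An order of B cells and CD8 T cells can therefore not be read from these values. In Cxcl9-high macrophages Il21r was higher than in Arg1-high ones in 12 of 12 libraries, by a median of 0.35 (9.21% of genes).

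The list of 22 other genes of the pathway held 17 with at least 10 CPM in a class of at least 100 cells. Among classes of that size, 11 of the 21 with a UMI were highest in a lymphoid class, 6 in a dendritic and 4 in a myeloid class. The same shares over all genes were not computed, so no lean of the pathway is read from these counts. Some tops rest on few UMIs, such as 2 for Tslp and 10 for Il21. Il4 and Il13 count as lymphoid here, because the basophils and mast cells were too few to enter. The other ligands were sparse. Il2, the T cell growth factor, reached 49.2 CPM in conventional CD4 T cells, against 9.79 CPM in CD8 T cells and 4.93 CPM in macrophages. Il4 was at 4.95 CPM in conventional CD4 T cells and at 167 CPM in the 48 basophils and mast cells. Il13 was at 17.3 and 38.0 CPM in the same classes. Il21 reached 3.09 CPM in conventional CD4 T cells, Il7 3.28 CPM in mature dendritic cells and Tslp 1.90 CPM in Cd209a-positive dendritic cells, while Il9 had 0 UMIs in all classes.

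The partner chain Il13ra1, which joins Il4ra, was highest in neutrophils at 203 CPM. Crlf2, which joins Il7r in the TSLP receptor, was highest in Cd209a-positive dendritic cells at 202 CPM, and Il9r in B cells at 18.9 CPM. Of the kinases, Jak1 peaked in NK cells (396 CPM) and Jak3 in CD8 T cells (22.6 CPM). Stat3 (472 CPM) and Stat5a (79.9 CPM) peaked in mature dendritic cells, Stat5b in conventional CD4 T cells (40.8 CPM) and Stat6 in neutrophils (100.3 CPM). Of the feedback inhibitors, Socs2 was highest in mature dendritic cells at 341 CPM, Socs3 in neutrophils at 520.1 CPM, and Cish and Socs1 in conventional CD4 T cells at 167 and 123 CPM. The survival genes Bcl2 and Pim1 peaked in Trdc-positive T cells (501 CPM) and in neutrophils (1549 CPM). These are pooled levels over libraries and classes of at least 100 cells, given as a description.

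Across the 16 classes the genes with the pattern most like each member were found by Pearson correlation of log2(CPM + 1), among 9183 genes with at least 20 CPM in a class. The classes share libraries, differ in depth and range from 10 to 58223 cells, so the values are descriptive. For Il2ra they were Ikzf4 (0.94), Tnfrsf18 (0.92) and Aebp2 (0.90), and for Il2rb Cd96 (0.97), Nkg7 (0.97) and Thy1 (0.96). For Il2rg they were Rasa1 (0.93), Panx1 (0.89) and Vgll4 (0.86), and for Il7r Slc5a3 (0.82), Sugt1 (0.82) and Fkbp8 (0.81). For Il15 they were Basp1 (0.91), Ist1 (0.91) and Tarm1 (0.90), and for Il15ra Lad1 (0.85), Scyl2 (0.80) and Arl5a (0.78). For Il4ra they were Cdkn1a (0.89), Wfdc17 (0.88) and Slc2a6 (0.88), and for Il21r Mkln1 (0.94), Faim (0.92) and Fbxl6 (0.92). Over the 13 classes of at least 100 cells 3 of these 24 genes were again among the 3 most alike for their member, Ikzf4 for Il2ra and Rasa1 and Panx1 for Il2rg. The other 21 names thus depended on which classes were used.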

How the data were processed

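CD45+ cells of 12 mice were made into 10x Genomics 3' v3 libraries, and the authors deposited the UMI counts of all of them together, not normalized. The file header names Cell Ranger 3.0.2, and the submitters' processing notes name Cell Ranger 2.1.1, Seurat and mm10; the version that made the counts cannot be told from them. Reads at the 3' end measure no isoforms, so levels were not compared between genes.

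The study's limits on cells were used: over 200 genes, under 5000 genes, and no more than 10% of UMIs from mitochondria. They leave fewer cells here than the study counts after its QC. Classes were gated on lineage UMIs, with genes of other lineages excluded; this exclusion was the only step against doublets, and 226 cells that met 2 gates went to 1 class by a fixed order. UMIs were summed per class and library and scaled to CPM, with exact Poisson intervals, and shares have exact Clopper-Pearson intervals (95%, counting error only). Log2 ratios within a library used 0.5 UMI added to each sum, at least 20 cells of both classes and at least 3 libraries. Counts of libraries compare CPM with nothing added, so they can differ from the sign of a ratio.

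Libraries were assigned to mice only by a name in the labels or files, and none gives one. Barcode totals of consecutive libraries lie near the cell totals that the study gives by treatment, but totals and order were not used to assign libraries. Libraries 1 to 6 and 7 to 12 may thus also differ in days of treatment, and the planned edgeR comparison of EZH2i with vehicle was not run. The 8 genes, the gates, the pathway list and the 24 planned pairs of classes were chosen with earlier results of these data known, and 27 further pairs after values had been seen. Named genes were the 8 members, pathway ligands, pathway genes with at least 10 CPM, and the 3 most alike genes for each member. The loose NF-kB form was added after the strict form had no match. Genes were placed with GENCODE M21 (99.6% of identifiers matched). Scripts were tested on simulated counts. The software was pandas 2.3.3, scipy 1.17.1, matplotlib 3.10.9 and numpy 2.4.6 under Python 3.11.15. Alternatives changed the gene and mitochondrial limits, the gates, the scale, the depth, the removal of the 10% of cells with the most UMIs, the minimum number of cells and the libraries.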

Additional observations from a re-analysis of the deposited data

How the results depend on the processing

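Of 480 recomputed ratios for 46 pairs of classes, 464 kept their direction and moved by less than the spread between libraries, 10 moved by more and 6 changed sign; a further 26 had fewer than 3 libraries and gave no value. The cause of these changes was not tested, beyond the fewer UMIs or cells that an alternative leaves. At 1000 UMIs per cell the median log2 ratio became 2.95 for Il15ra in mature dendritic cells over cDC1, 0.51 for Il15ra in CD8 T cells over cDC1 and 1.25 for Il15ra in Cxcl9-high over Arg1-high macrophages, while Il2rb in CD8 over CD4 T cells (-0.091) and Il2ra in cycling over Havcr2-positive CD8 T cells (0.16) changed sign. With gates raised by 1 UMI it was 0.30 for Il2rb in NK over CD8 T cells, 1.07 for Il4ra in neutrophils over macrophages and -0.094 for Il2rb in cycling over Havcr2-positive cells, whose sign also changed with a mean over cells (-0.050) and in libraries 7 to 12 (-0.052). In libraries 1 to 6 it was 1.02 for Il2rg in CD8 T cells over macrophages and -0.094 for Il4ra in neutrophils over monocytes. In libraries 7 to 12 it was 1.09 for Il15ra in Cxcl9-high over Arg1-high macrophages and -0.031 for Il2ra in cycling over Havcr2-positive cells. Without the 10% of cells with the most UMIs Il2rg in NK cells over neutrophils was 4.07, over 3 libraries, and with at most 5% mitochondrial UMIs Il2rb in NK over mature dendritic cells was 8.02. The split of the libraries by number, the minimum of 5 cells and all alternatives of the added pairs were chosen after seeing the data. Of 904 recomputed class levels, 45 moved by more than the spread between libraries.

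Of the 24 planned pairs 5 gave no value, 4 with Foxp3-positive T cells and 1 with Trdc-positive T cells, which reached 20 cells in too few libraries. Classes were paired within a library. Treatment groups were not paired, because no library was assigned to a mouse and each group was made of other mice. Depth limits the low levels, and in NK cells, B cells and neutrophils the level that 1 UMI stands for varied between libraries. In library 6, 1 UMI was 22.6 CPM of Il15 in neutrophils and 24.1 CPM of Il21r in B cells. It was 11.7 CPM of Il7r in NK cells of library 1, but 1.06 CPM of Il2rb in neutrophils of library 8. A class at 0 UMIs is not shown to lack the transcript.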
